A study of Mus musculus with 12 samples.

Results

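The Hoxa cluster genes examined here were the 9 protein-coding members Hoxa2, Hoxa3, Hoxa4, Hoxa5, Hoxa6, Hoxa7, Hoxa9, Hoxa10 and Hoxa11, taken by name from the 55291 genes of the count matrix and described in their order along the chromosome. RNA-seq was performed on Lin-cKit+ (LK) bone marrow cells, a bead-purified progenitor fraction that lacks mature lineage markers and carries the KIT receptor, from C57BL/6 mice aged 12 months. There were 12 libraries, each from a single mouse, with 3 per genotype. The genotypes were wild type (WT), Kdm6bΔ/+, Asxl1Y588XTg, and the double mutant Asxl1Y588XTg Kdm6bΔ/+. Asxl1Y588XTg mice carry a transgene for a truncated ASXL1 protein on top of their normal Asxl1 alleles. Kdm6bΔ/+ mice lost 1 copy of Kdm6b, which encodes a demethylase of histone H3 lysine 27, after the interferon-responsive Mx1Cre recombinase was switched on with pI:pC. Whether the WT and Asxl1Y588XTg mice sequenced here also carried Mx1Cre or received pI:pC is not given in the sources used here, nor is the promoter of the transgene.

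Hox genes encode homeodomain transcription factors that are arranged in 4 clusters, and the order of the genes in a cluster follows the order of the body regions they pattern. In blood, the middle and late Hoxa genes are used by stem and progenitor cells and are switched off as these cells mature. Their chromatin is held active by MLL-type methyltransferases and closed by Polycomb repressive complexes, HOXA proteins bind DNA together with MEIS and PBX cofactors, and HOXA9 is a well-known driver of acute myeloid leukemia.

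In LK cells the cluster was carried by Hoxa9 and Hoxa7, and the genotypes differed most in Hoxa5 and Hoxa10. Asxl1Y588XTg libraries held the highest Hoxa5 and Hoxa10 levels of the study, Kdm6bΔ/+ libraries held the lowest Hoxa5 levels, and double-mutant libraries overlapped WT for both genes. None of these differences passed the test across all genes, as given for each comparison.

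All 9 genes lie on the minus strand of mouse chromosome 6 (mm10), within 83.39 kb between positions 52162417 and 52245810. By the GENCODE vM21 gene models, Hoxa5 (ENSMUSG00000038253.6) occupies chr6:52201754-52204587, Hoxa7 (ENSMUSG00000038236.8) chr6:52214491-52221854, Hoxa9 (ENSMUSG00000038227.15) chr6:52223100-52231089, and Hoxa10 (ENSMUSG00000000938.11) chr6:52231197-52240854. Exons of Hoxa5, Hoxa6 and Hoxa10 share no base with another gene on either strand. For Hoxa9, 98.5% of exon bases are its own, with the miRNA gene Mir196b inside it. The share is 79.6% for Hoxa7, which overlaps the antisense RNA Hoxaas3, 84% for Hoxa4, 85% for Hoxa2, 72.9% for Hoxa3, and 65% for Hoxa11, which overlaps the opposite-strand Hoxa11os. The strand setting of the counting is not given in the sources used here, so reads of Hoxa3, Hoxa7 and Hoxa11 cannot be told apart from those of their antisense partners. Of all 50-base stretches in the transcripts, the length of 1 read, none from Hoxa5 or Hoxa10 occurs in another gene. For Hoxa9 the share was 0.646%, all of it in Mir196b, and for Hoxa7 it was 18.7%, all of it in Hoxaas3.

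The 250 bases before the start site are shown for the 4 genes with the most reads, because they moved differently across the genotypes. They come from RefSeq (GRCm38.p6), read 5′ to 3′ on the minus strand, with capitals marking CG dinucleotides, the sites of DNA methylation in promoters. The windows are chr6:52204588-52204837 for Hoxa5, chr6:52218574-52218823 for Hoxa7 and chr6:52227371-52227620 for Hoxa9. Hoxa10 has 2 start sites in RefSeq, with windows at chr6:52240855-52241104 and chr6:52234940-52235189.
Hoxa5: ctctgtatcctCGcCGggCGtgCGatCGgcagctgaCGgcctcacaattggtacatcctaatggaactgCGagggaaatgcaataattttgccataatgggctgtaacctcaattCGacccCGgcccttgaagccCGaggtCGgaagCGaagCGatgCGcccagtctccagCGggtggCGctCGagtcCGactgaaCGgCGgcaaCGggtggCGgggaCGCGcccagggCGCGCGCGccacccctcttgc
Hoxa7: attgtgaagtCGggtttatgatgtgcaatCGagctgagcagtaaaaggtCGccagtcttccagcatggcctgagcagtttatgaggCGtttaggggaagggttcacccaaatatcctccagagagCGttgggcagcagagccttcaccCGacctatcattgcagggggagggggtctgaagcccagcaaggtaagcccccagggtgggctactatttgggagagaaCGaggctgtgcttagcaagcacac
Hoxa9: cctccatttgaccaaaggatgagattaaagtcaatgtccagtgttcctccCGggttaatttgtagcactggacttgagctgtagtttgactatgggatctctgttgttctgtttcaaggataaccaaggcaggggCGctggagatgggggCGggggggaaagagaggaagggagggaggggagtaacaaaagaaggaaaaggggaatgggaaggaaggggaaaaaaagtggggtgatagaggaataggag
Hoxa10, upstream start: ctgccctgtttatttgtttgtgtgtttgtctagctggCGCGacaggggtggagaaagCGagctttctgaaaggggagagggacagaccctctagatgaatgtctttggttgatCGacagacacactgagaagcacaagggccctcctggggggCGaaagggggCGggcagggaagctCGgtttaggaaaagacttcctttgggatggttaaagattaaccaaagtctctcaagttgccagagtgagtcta
Hoxa10, downstream start: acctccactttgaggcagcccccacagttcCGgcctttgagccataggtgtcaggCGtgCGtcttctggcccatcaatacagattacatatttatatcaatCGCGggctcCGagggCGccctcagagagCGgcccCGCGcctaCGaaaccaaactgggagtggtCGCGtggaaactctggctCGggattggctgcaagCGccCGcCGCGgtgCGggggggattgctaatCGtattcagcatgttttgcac
The Hoxa5 window held 28 CG dinucleotides, more than 92.4% of the 32841 promoters of the same length in the table, whose median was 6. The Hoxa9 window held 3, more than 29% of promoters, and the Hoxa7 window held 7, more than 53.7%. The downstream Hoxa10 start was CG-rich with 20, more than 82% of promoters, and the upstream start held 7. RefSeq promoters were found for 8 of the 9 genes, and the windows of Hoxa6 and Hoxa3 held 24 and 18 CG dinucleotides, Hoxa11 13 and Hoxa2 6. Among 4 letter patterns searched on both strands, the PBX-HOX pattern TGATNNAT occurred in 1 of the 9 windows (Hoxa2) and in 7.69% of all promoters. The MEIS core TGACAG occurred in 2 (Hoxa2 and Hoxa3) against 15.9% of promoters. CCAAT occurred in 4, including Hoxa5 and the downstream Hoxa10 start, against 33.9%. The GC-box core GGGCGG occurred in 3 (Hoxa6, Hoxa9 and the upstream Hoxa10 start) against 32.7%. None of the patterns contains another, and a match is a description of the sequence only.

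Sequencing depth was between 14451522 and 23482563 counts per library, with a median of 17125384.5. The spread of Hoxa5, Hoxa9, Hoxa7 and Hoxa10 within genotypes was 1.81, 3.00, 3.20 and 3.37 times that of counting error alone (variance ratio). The median over all tested genes was 4.70. This ratio rises with the count of a gene, so the values do not show that the Hoxa genes vary less between mice. Kdm6b normalized counts, the check of the deletion, were 1346 to 1622 in Kdm6bΔ/+, 1649 to 1909 in the double mutant, 1869 to 2372 in WT and 2187 to 2303 in Asxl1Y588XTg libraries, so that WT and the double mutant overlapped. Asxl1 counts did not separate the genotypes, with 2545 to 3081 in WT and 2906 to 3060 in Asxl1Y588XTg libraries. Transcripts of Y-linked genes were present in 0 of 3 WT, 2 of 3 Kdm6bΔ/+, 1 of 3 Asxl1Y588XTg and 3 of 3 double-mutant libraries, so sex and genotype cannot be told apart between WT and the double mutant. Kit, the sorted receptor, lay between 5764 and 7759 normalized counts in all libraries, and 8 neutrophil genes took 5.06% to 7.36% of all counts although the cells were depleted of mature lineages.

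Normalized counts were compared per kb of exon, since longer genes collect more reads. In WT LK cells, Hoxa9 held 33.3 ± 0.539 and Hoxa7 30.0 ± 7.69 normalized counts per kb (SD, n = 3), which did not differ beyond their spread. Hoxa5 followed with 15.5 ± 3.95 and Hoxa10 with 8.36 ± 2.12. Hoxa6 (5.79 ± 5.63), Hoxa4 (4.52 ± 2.57), Hoxa3 (1.95 ± 1.37) and Hoxa2 (1.23 ± 2.13) followed in the order of their means. From Hoxa10 down to Hoxa2, no gene differed beyond the spread from the next. Hoxa11, a gene of limb and reproductive tract patterning, had no read in any WT library. The profile therefore peaked over the neighbours Hoxa7 and Hoxa9, with Hoxa5 and Hoxa10 on either side. Even the peak was modest, because the Hoxa9 level exceeded that of 38.4% of the 15481 tested genes with a known length. Hoxa9 and Hoxa7 have several transcripts, and when the length of the longest coding transcript was used their WT levels were 57.7 and 42.9 per kb, in the same order.

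**Figure D1:**
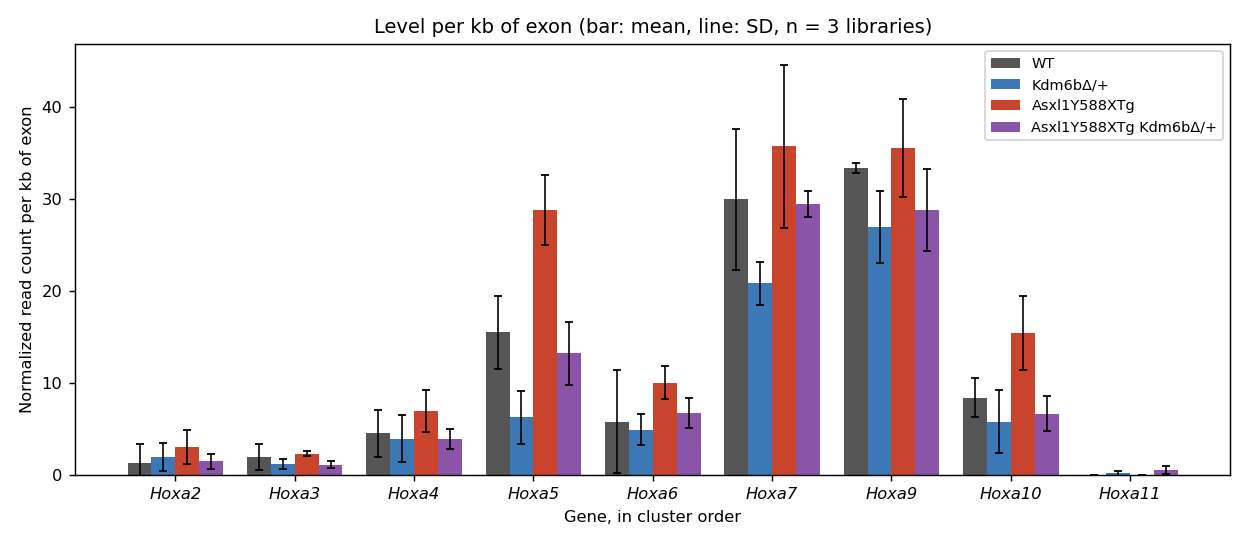
Normalized read count per kb of exon (y axis) for the 9 Hoxa genes in cluster order (x axis), with bars for the mean of 3 libraries and lines for the SD, coloured by genotype. Hoxa7 and Hoxa9 are highest in every genotype, and the Asxl1Y588XTg bar of Hoxa5 reaches 28.8 per kb, against 15.5 in WT and 6.25 in Kdm6bΔ/+ libraries.

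The same order held in the other genotypes with a few exceptions. Hoxa7 and Hoxa9 were level in Asxl1Y588XTg cells, at 35.7 ± 8.85 and 35.5 ± 5.30 normalized counts per kb, and in the double mutant, at 29.4 ± 1.43 and 28.8 ± 4.43. In Kdm6bΔ/+ cells Hoxa5 (6.25 ± 2.92) did not differ beyond the spread from Hoxa10 (5.77 ± 3.44) and Hoxa6 (4.89 ± 1.70). In Asxl1Y588XTg cells Hoxa5, at 28.8 ± 3.82, came within the spread of Hoxa7 and Hoxa9. In the double mutant Hoxa6 (6.73 ± 1.60) and Hoxa10 (6.66 ± 1.87) were level. The mean of Hoxa2 lay above that of Hoxa3 in Kdm6bΔ/+ (1.95 and 1.15), Asxl1Y588XTg (3.03 and 2.29) and double-mutant cells (1.46 and 1.11).

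Hoxa9, the HOX gene most used by myeloid progenitors and leukemias, differed little between genotypes. Its normalized counts in the 3 WT libraries were 183, 189 and 186. They were 232, 182 and 180.3 in Asxl1Y588XTg, 145, 132 and 174 in Kdm6bΔ/+, and 189, 142 and 152 in double-mutant libraries. The 3 WT libraries, with raw counts of 173 to 200, lay closer together than counting error alone would usually leave them. This does not show that Hoxa9 varies less in WT. The Asxl1Y588XTg libraries overlapped them with 1 library higher, and all Kdm6bΔ/+ libraries lay below all WT libraries, at 174 against 183 for the nearest.

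Hoxa7, the neighbour of Hoxa9 that is raised with it in MLL-rearranged leukemias, showed a wider spread within genotypes. Its normalized counts were 111, 67.7 and 80.2 in WT and 131, 96.6 and 81.0 in Asxl1Y588XTg libraries. They were 56.5, 55.5 and 67.5 in Kdm6bΔ/+ and 86.3, 80.0 and 87.7 in double-mutant libraries. The Kdm6bΔ/+ libraries were the lowest, just under the lowest WT library and below all double-mutant libraries.

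Hoxa5, a gene known from lung and axial development that is also read in blood progenitors, separated the genotypes most clearly. Its normalized counts were 37.5, 26.2 and 23.5 in WT, 62.4, 50.3 and 49.6 in Asxl1Y588XTg, 10.1, 17.8 and 7.27 in Kdm6bΔ/+, and 31.7, 19.0 and 23.7 in double-mutant libraries. All Asxl1Y588XTg libraries were above every other library, all Kdm6bΔ/+ libraries were below every other library, and WT and the double mutant overlapped.

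Hoxa10, a gene of uterine patterning that is also read in early blood progenitors, resembled Hoxa5 at the upper end only. Its normalized counts were 25.6, 35.0 and 21.4 in WT, 65.4, 44.3 and 41.5 in Asxl1Y588XTg, 22.6, 27.8 and 6.23 in Kdm6bΔ/+, and 28.8, 19.0 and 17.5 in double-mutant libraries. Again all Asxl1Y588XTg libraries were above every other library, and the remaining genotypes overlapped.

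Hoxa3, needed for the thymus and parathyroid, and Hoxa4, a gene of neck vertebra patterning, were near the limit of measurement. Their raw counts ran from 3 to 23 and from 3 to 15 reads per library. Normalized Hoxa3 counts were 12.1 to 15.2 in Asxl1Y588XTg and 4.0 to 8.85 in double-mutant libraries, which did not overlap, whereas WT libraries spread from 5.35 to 21.0. Normalized Hoxa4 counts were 8.05 to 15.1 in Asxl1Y588XTg and 4.13 to 7.38 in double-mutant libraries, again without overlap, with WT libraries from 4.37 to 11.9. Hoxa2 (0 to 9 reads), Hoxa6 (0 to 10 reads) and Hoxa11 (0 to 2 reads) had too few reads to be tested. A read of Hoxa11 was seen in 1 Kdm6bΔ/+ and 2 double-mutant libraries, and 0 reads in the others, where a count of 0 allows up to 3 reads per library.

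**Figure D2:**
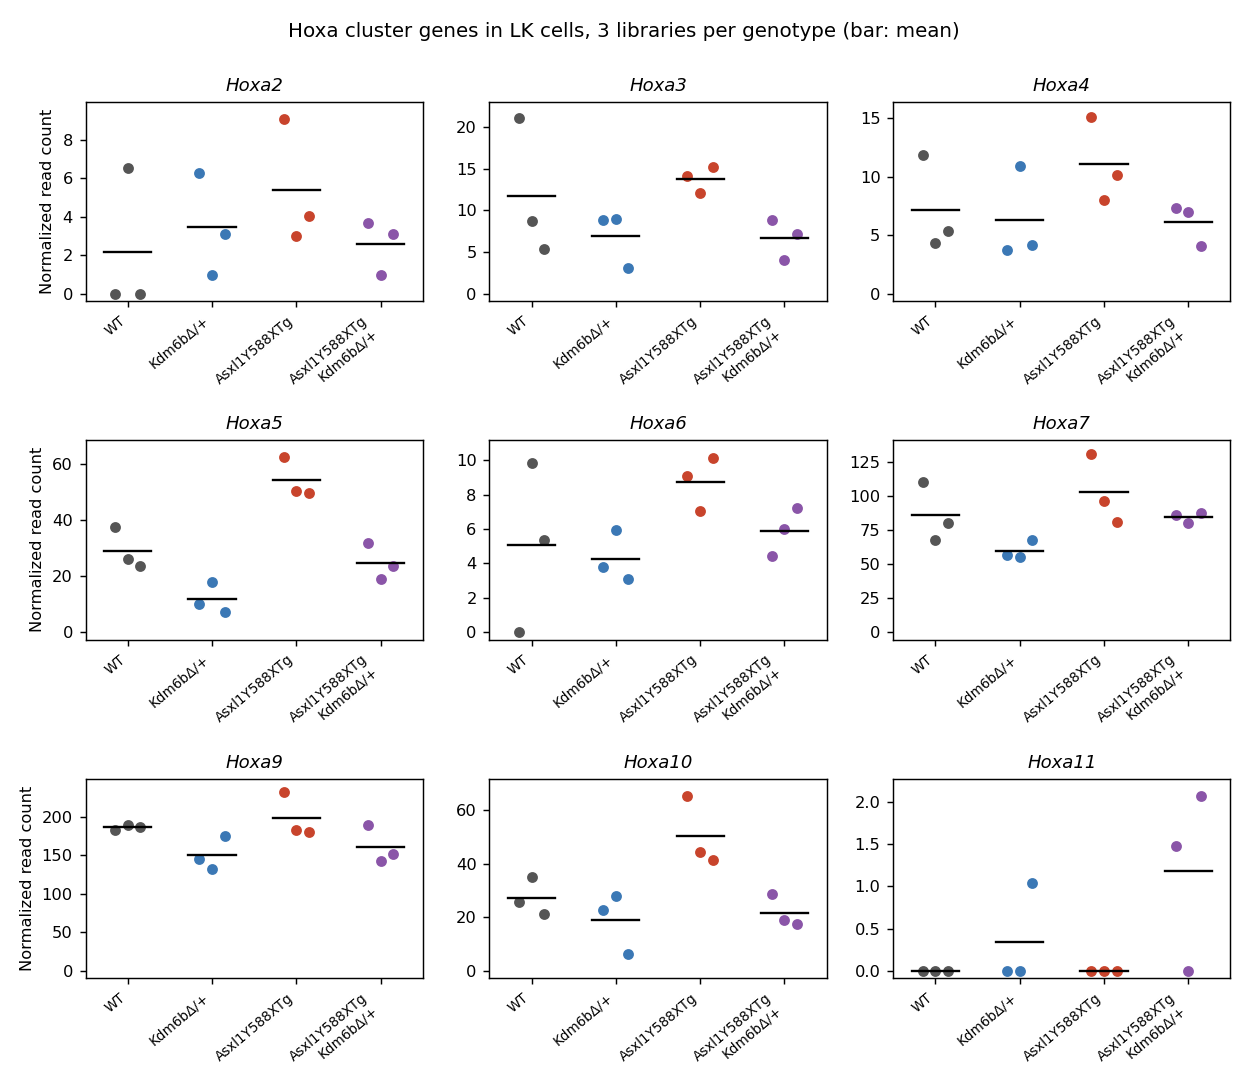
Normalized read counts (y axis, own scale including 0 in each panel) of the 9 Hoxa genes in each library by genotype (x axis), with points for libraries and horizontal bars for the mean of 3. For Hoxa5 and Hoxa10 the 3 Asxl1Y588XTg points, 49.6 to 62.4 and 41.5 to 65.4, lie above all other points.

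The first comparison asked how truncated ASXL1 changes the cluster. Between Asxl1Y588XTg and WT, Hoxa5 was 1.85-fold and Hoxa10 1.84-fold higher in the transgenic cells, while Hoxa9 was almost level at 1.06-fold. In log2 units, Hoxa5 differed by 0.89 (SE 0.34, 95% interval 0.12 to 1.66, edgeR adjusted p = 0.413) and Hoxa10 by 0.88 (SE 0.37, 95% interval 0.05 to 1.71, edgeR adjusted p = 0.491). Neither passed the test, the quasi-likelihood test of edgeR adjusted over 15825 genes after Benjamini and Hochberg, with calls at an adjusted p under 0.05 and a change above 1.5-fold. The unadjusted p-values from edgeR were 0.0282 and 0.0407. Hoxa4 (0.60), Hoxa7 (0.25), Hoxa3 (0.22) and Hoxa9 (0.09) had log2 differences with intervals that included 0. The Hoxa9 interval ran from -0.30 to 0.48, so a rise of more than 1.39-fold lay outside it.

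Of the 6 tested Hoxa genes, 0 were called in Asxl1Y588XTg against WT, where 1.61% of all genes were called (250 higher and 5 lower). All 6 differences were positive, with a median log2 difference of 0.42 against -0.01 over all genes. The groups did not overlap for 2 of the 6, both higher in Asxl1Y588XTg, beside 10.5% of all genes in that direction, and for 0 of the 6 in the other direction, beside 5.21%. Without WT replicate 1, which held the highest WT counts of Hoxa3, Hoxa4, Hoxa5 and Hoxa7, the median was 0.89, and it was 0.22 without WT replicate 2 and 0.26 without Asxl1Y588XTg replicate 1.

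The second comparison asked whether loss of 1 Kdm6b copy changes the cluster in cells with truncated ASXL1. In Asxl1Y588XTg Kdm6bΔ/+ cells Hoxa5 was at 0.469 and Hoxa10 at 0.442 of their Asxl1Y588XTg levels, the Hoxa differences with the smallest p-values among the 6 tests, and Hoxa9 was at 0.822. The log2 difference was -1.09 for Hoxa5 (SE 0.29, 95% interval -1.73 to -0.46, edgeR adjusted p = 0.0882) and -1.18 for Hoxa10 (SE 0.32, 95% interval -1.88 to -0.48, edgeR adjusted p = 0.0938). Hoxa3 followed with -0.99 (edgeR unadjusted p = 0.0460, adjusted p = 0.310) and Hoxa4 (-0.80), Hoxa9 (-0.28) and Hoxa7 (-0.26) had intervals that included 0. DESeq2 gave adjusted p-values of 0.0804 for Hoxa5 and 0.0852 for Hoxa10.

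Of the 6 tested genes, 0 were called in this comparison, where 1.74% of all genes were called (23 higher and 252 lower). All 6 differences were negative, with a median log2 difference of -0.90 against -0.004 over all genes. The groups did not overlap for 4 of the 6 (Hoxa3, Hoxa4, Hoxa5 and Hoxa10), all lower in the double mutant, beside 14.1% of all genes in that direction, and for 0 of the 6 in the other, beside 7.11%. The call depended on which genes entered the fit. With no expression filter, which raised the genes tested to 30955, Hoxa5 (edgeR adjusted p = 0.0269) and Hoxa10 (edgeR adjusted p = 0.0182) were called as lower. Their log2 differences in that fit were -1.09 (SE 0.33) and -1.17 (SE 0.34). The differences were thus no larger, and the SEs no smaller, than with the filter, so these calls do not show a stronger effect. In 1 fit of all 12 libraries the log2 differences were -1.11 for Hoxa5 and -1.19 for Hoxa10, with edgeR adjusted p-values of 0.201 and 0.274. With presence of Y-linked transcripts as a further term in that fit they were -0.77 and -0.80 (edgeR adjusted p = 0.773 and 0.854). The adjusted p-values without the filter and with the Y-linked term were the lowest and the highest over the alternatives tried for these 2 genes.

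The third comparison set Kdm6bΔ/+ against WT, where the transgene is absent. Y-linked transcripts were present in 2 of 3 Kdm6bΔ/+ and 0 of 3 WT libraries, and Mx1Cre and pI:pC are not given for the WT mice. The groups may therefore differ in more than the deletion. Between Kdm6bΔ/+ and WT all 6 tested genes were lower, led by Hoxa5 at 0.407 of the WT level, and Hoxa7 and Hoxa9 lay at 0.694 and 0.808. The Hoxa5 log2 difference was -1.30 (SE 0.53, 95% interval -2.46 to -0.13, edgeR adjusted p = 0.9999, unadjusted p = 0.0317). The log2 differences of Hoxa3 (-0.76), Hoxa10 (-0.53), Hoxa7 (-0.53), Hoxa9 (-0.31) and Hoxa4 (-0.19) had intervals that included 0. Of the 6 genes, 0 were called, where 0.0948% of all genes were called. The groups did not overlap for 3 of the 6 (Hoxa5, Hoxa7 and Hoxa9), all lower in Kdm6bΔ/+, beside 4.8% of all genes in that direction, and for 0 of the 6 in the other, beside 4.13%. The median log2 difference was -0.53, against -0.003 over all genes, and it was -0.31 without WT replicate 1 and -0.89 without Kdm6bΔ/+ replicate 2. Hoxa3 was at -0.027 without WT replicate 1, and Hoxa10 at -0.10 without Kdm6bΔ/+ replicate 3 and -0.93 without Kdm6bΔ/+ replicate 2. With the Y-linked term in the fit of all 12 libraries, Hoxa5 was at -1.01, Hoxa7 at -0.53 and Hoxa3 at -0.52. Hoxa9 was at -0.34, Hoxa10 at -0.20 and Hoxa4 at 0.34 in that fit.

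The fourth comparison set the double mutant against Kdm6bΔ/+, which gives the effect of the transgene where 1 Kdm6b copy is missing. Hoxa5 was 2.11-fold and Hoxa7 1.42-fold higher in the double mutant, and Hoxa3, Hoxa4 and Hoxa9 were almost level. The log2 difference of Hoxa5 was 1.08 (SE 0.43, 95% interval 0.15 to 2.0, edgeR adjusted p = 0.343) and that of Hoxa7 was 0.50 (SE 0.21, 95% interval 0.04 to 0.96, edgeR adjusted p = 0.371). Hoxa10 (0.23), Hoxa9 (0.10), Hoxa3 (-0.02) and Hoxa4 (-0.04) had intervals that included 0. Of the 6 genes, 0 were called, beside 0.0948% of all genes. The groups did not overlap for 2 of the 6, both higher in the double mutant, beside 9.32% of all genes in that direction, and for 0 of the 6 in the other, beside 9.57%.

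Between the double mutant and WT no difference of a tested Hoxa gene was resolved, and all 6 estimates were negative. The log2 differences were -0.02 for Hoxa7 (95% interval -0.56 to 0.53), -0.19 for Hoxa9 (-0.57 to 0.18) and -0.21 for Hoxa5 (-1.10 to 0.68). They were -0.22 for Hoxa4 (-1.84 to 1.41), -0.30 for Hoxa10 (-1.24 to 0.63) and -0.78 for Hoxa3 (-2.39 to 0.82). All 6 intervals included 0, and those of Hoxa5 and Hoxa10 still allowed differences of up to 1.60-fold and 1.55-fold higher, or 0.465 and 0.424 of the WT level. Of the 6 genes, 0 were called, beside 0.215% of all genes, and 0 had groups that did not overlap, beside 6.68% of all genes higher and 6.87% lower in the double mutant. Here sex and genotype could not be told apart from these 6 libraries alone, and with the Y-linked term the signs of Hoxa4, Hoxa5 and Hoxa10 turned positive. The 5 comparisons share libraries, so their values are set side by side and are not independent of each other.

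**Figure D3:**
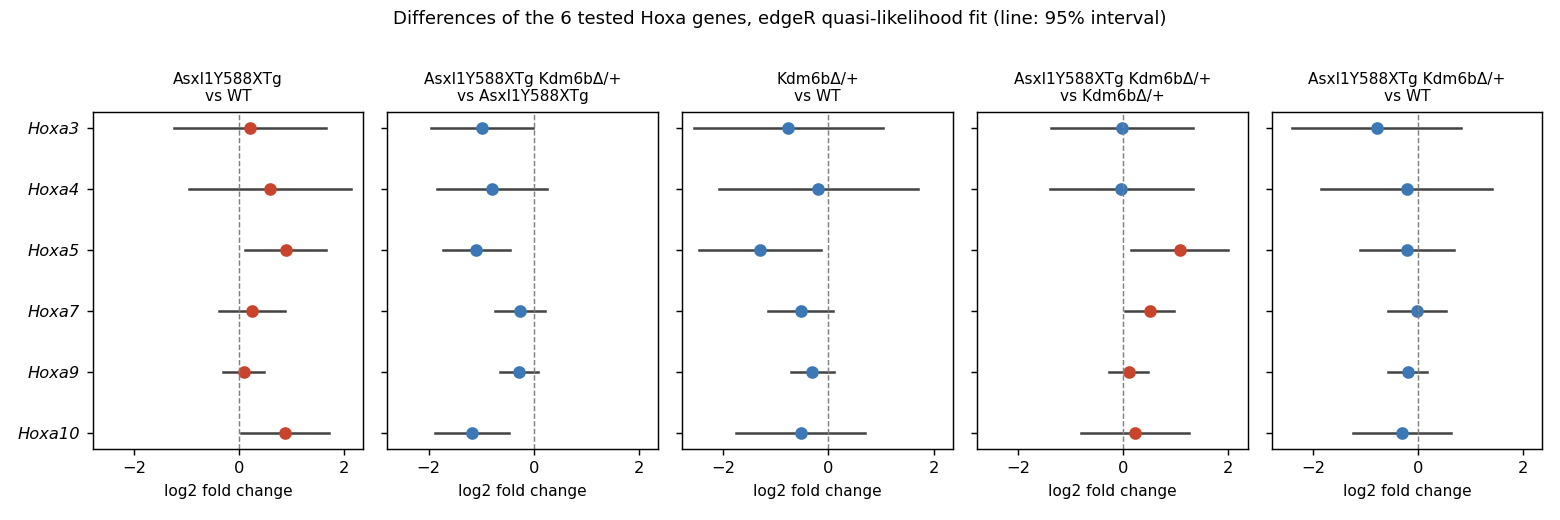
Log2 fold change (x axis, first-named genotype over the second) of the 6 tested Hoxa genes (y axis, in cluster order) in 5 comparisons, with points for the edgeR estimate and lines for the 95% interval. For Hoxa5 the interval leaves out 0 in 4 comparisons, with estimates of 0.89, -1.09, -1.30 and 1.08, and for Hoxa9 it includes 0 in all 5.

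The interaction asked whether loss of 1 Kdm6b copy has another effect in Asxl1Y588XTg cells than in WT cells. The interaction log2 term was 0.18 for Hoxa5 (95% interval -0.94 to 1.31), 0.01 for Hoxa9 (-0.50 to 0.51), 0.25 for Hoxa7, -0.24 for Hoxa3, -0.63 for Hoxa4 and -0.66 for Hoxa10 (-2.02 to 0.70). Of the 6 genes, 0 were called, beside 0.0126% of all genes, and the smallest edgeR adjusted p was 0.878, for Hoxa10. A different effect of the deletion in the presence of the transgene was thus not detectable at this depth for Hoxa5, whose 2 deletion estimates, -1.30 against WT and -1.09 against Asxl1Y588XTg, lay side by side.

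The make-up of the cluster's reads also varied. Hoxa7 and Hoxa9 together gave 76.9% ± 3.96 of the reads of the 9 genes in WT, 80.1% ± 8.85 in Kdm6bΔ/+, 67.7% ± 1.23 in Asxl1Y588XTg and 78.2% ± 1.90 in double-mutant libraries (SD, n = 3). The Asxl1Y588XTg libraries, at 66.7% to 69.1%, lay below all others, the lowest of which was 72.1%. Hoxa5 took 12.2% ± 0.572 of the reads in Asxl1Y588XTg, against 8.12% ± 1.31 in WT, 7.80% ± 0.971 in the double mutant and 4.49% ± 2.15 in Kdm6bΔ/+ libraries.

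Since the ratio of 2 genes within a library does not depend on its scaling, Hoxa5 and Hoxa10 were also read against Hoxa9. The ratio of Hoxa5 to Hoxa9 reads was 0.268, 0.276 and 0.275 in the Asxl1Y588XTg libraries and no higher than 0.205 in any other library. It was 0.205, 0.139 and 0.126 in WT, 0.0696, 0.135 and 0.0417 in Kdm6bΔ/+, and 0.168, 0.134 and 0.156 in double-mutant libraries. The ratio of Hoxa10 to Hoxa9 was 0.230 to 0.281 in Asxl1Y588XTg libraries and no higher than 0.211 elsewhere. These ratios were chosen after the values were seen, show unequal differences of the genes and were given no test.

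**Figure D4:**
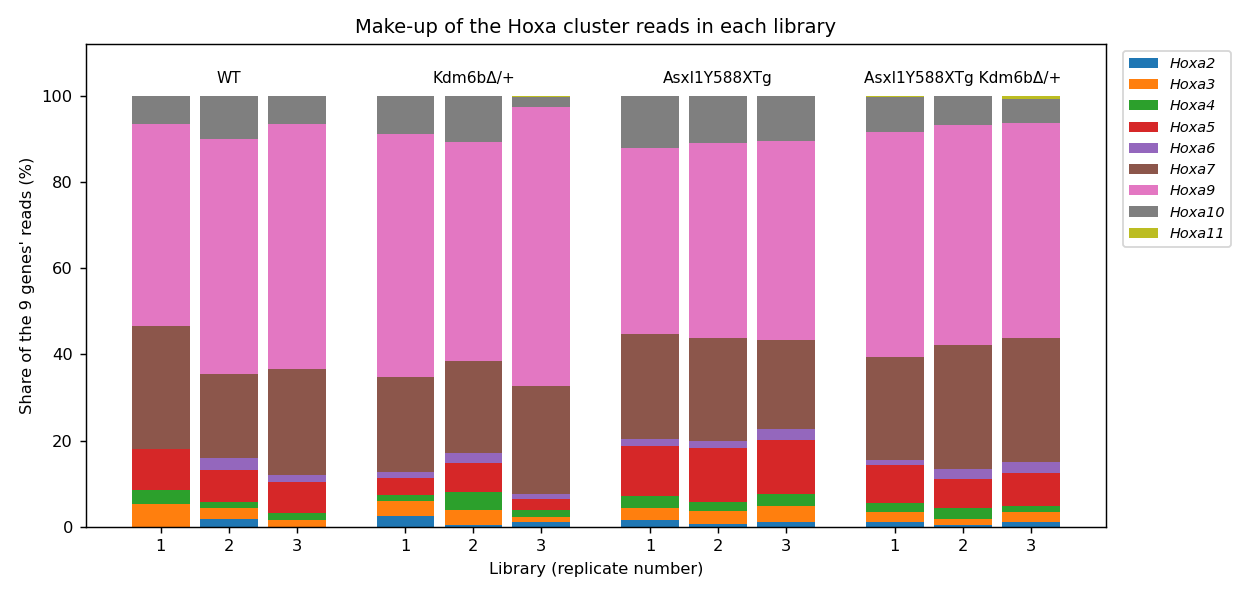
Share of the 9 Hoxa genes' reads (y axis, percent) in each of the 12 libraries (x axis, replicate number within genotype), with 1 colour per gene stacked in cluster order. Hoxa9 fills 43.2% to 46.0% of each Asxl1Y588XTg bar and 46.9% to 64.6% of the bars of the other genotypes.

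Summed over the 9 genes, the normalized counts were 355 ± 31.9 in WT (327 to 390), 262 ± 7.06 in Kdm6bΔ/+ (256 to 270), 445 ± 81.3 in Asxl1Y588XTg (392 to 538) and 315 ± 42.7 in double-mutant libraries (278 to 361). The sum was lowest in the 3 Kdm6bΔ/+ libraries and highest in the 3 Asxl1Y588XTg libraries. Across the 12 libraries, the 15 pairs of the 6 tested genes were all positively correlated. The highest Pearson correlation of these pairs was 0.85, for Hoxa5 with Hoxa10 (Spearman 0.80), and the lowest was 0.34, for Hoxa4 with Hoxa9. The libraries share genotypes, so these correlations are descriptions and include the differences between groups.

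The genes around and in the cluster that are not members were described by the same fits. Of 10 flanking genes, such as Skap2 and Hibadh, 9 were tested and 0 were called in any of the comparisons. Their median log2 difference was 0.04 in Asxl1Y588XTg against WT and -0.08 in the double mutant against Asxl1Y588XTg, where the groups did not overlap for 3 of the 9, all lower, beside 14.1% of all genes. Hoxa13 (0 to 3 reads) was too low to test. Of the noncoding RNAs of the cluster, Hoxaas3 was tested, with 2 to 14 reads per library and a log2 difference of 0.14 in Asxl1Y588XTg against WT (edgeR adjusted p = 0.975). Hoxaas3 had a log2 difference of -0.99 in Kdm6bΔ/+ against WT, without overlap (2.08 to 6.94 against 8.56 to 10.98 normalized counts, edgeR adjusted p = 0.9999), and differed by 1.11 in the double mutant against Kdm6bΔ/+ (edgeR adjusted p = 0.501). Hoxa5, Hoxa7, Hoxa9 and Hoxa10 had the same directions in these comparisons, and of these genes Hoxaas3 overlaps the exons of Hoxa7 alone. It also overlaps exons of Hoxa3, whose log2 differences were -0.76 and -0.02. The directions did not match throughout. In the double mutant against Asxl1Y588XTg, Hoxaas3 was at -0.004, where Hoxa5 and Hoxa10 were at -1.09 and -1.18. In the double mutant against WT it was at 0.15, where all 6 tested Hoxa estimates were negative. Halr1 and Hottip had 0 reads in every library. Mir196b also had a count of 0, but all of its 85 bases lie in Hoxa9 exons on the same strand. Its count therefore does not show whether Mir196b is transcribed.

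Among cofactors of HOX proteins, Meis1, which encodes the partner of HOXA9 in leukemia, rose with the transgene. Its normalized counts were 383 to 527 in WT, 369 to 438 in Kdm6bΔ/+, 968 to 1125 in Asxl1Y588XTg and 441 to 583 in double-mutant libraries. The log2 difference was 1.26 between Asxl1Y588XTg and WT (SE 0.13, edgeR adjusted p = 0.00266) and -1.07 between the double mutant and Asxl1Y588XTg (SE 0.11, edgeR adjusted p = 0.00265). Of the 10 tested MEIS, PBX, PKNOX and TGIF genes, Meis1 alone was called in either comparison.

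Of the 19 tested genes for activators of the cluster, such as Kmt2a, Men1 and Dot1l, Mllt6 alone was called in these 2 comparisons, with log2 differences of 0.74 (edgeR adjusted p = 0.0383) and -0.59 (edgeR adjusted p = 0.0431). The caudal factors Cdx2 and Cdx4, which activate Hox genes in the embryo, had 0 reads. None of the 18 Polycomb and BAP1 complex genes was called in any comparison, beside 0.0126% to 1.74% of all genes. In Asxl1Y588XTg against WT the groups did not overlap for 6 of the 18. Of these, 3 were higher, beside 10.5% of all genes, and 3 lower, beside 5.21%. Higher were Pcgf2 (42.1 to 61.0 normalized counts in WT and 89.5 to 128 in Asxl1Y588XTg) and Cbx7 (57.6 to 99.4 and 127 to 154). Jarid2 was also higher (2120 to 2276 and 2292 to 2498). Ezh2 (2795 to 3239 and 2551 to 2757) and Eed (1037 to 1173 and 958 to 999) were lower. Mtf2 was also lower (1643 to 1744 and 1288 to 1598). All were named after their values were seen. Of 20 genes known as targets of HOXA9 and MEIS1, Meis1 and Mycn were called as higher in Asxl1Y588XTg than WT, and Meis1, Mycn, Nkx2-3 and Pim1 as lower in the double mutant than Asxl1Y588XTg. The median log2 differences of the 20 were 0.08 and -0.23. In Kdm6bΔ/+ against WT, in the double mutant against Kdm6bΔ/+ and in the interaction, 0 genes of these lists were called. In the double mutant against WT the X-linked demethylase gene Kdm6a alone was called, as lower (1259 to 1303 against 2060 to 2256 normalized counts). In the groups of mixed sex its counts spread from 1268 to 2097 (Kdm6bΔ/+) and from 1233 to 2163 (Asxl1Y588XTg). Sex and genotype cannot be told apart between WT and the double mutant, and the part of sex in this call was not tested.

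Of 10 Hoxb genes, 5 were tested. Hoxb4, the Hoxb gene with the most reads, had 92.9 to 123 normalized counts in WT and 110 to 141 in Asxl1Y588XTg libraries, a log2 difference of 0.23 (edgeR adjusted p = 0.862). Hoxb5, Hoxb6 and Hoxb8 had means of 1.43, 2.16 and 2.82 in WT and 27.2, 18.8 and 45.0 in Asxl1Y588XTg libraries, so they entered the test through the group in which they were high. Normalized Hoxb8 counts were 0.915 to 4.28 in WT, 0 to 2.97 in Kdm6bΔ/+, 41.2 to 48.6 in Asxl1Y588XTg and 1.48 to 12.4 in double-mutant libraries. Hoxb8 was called in both comparisons (edgeR adjusted p = 0.00835 and 0.0268), Hoxb5 in the first alone and Hoxb6 in the second alone, and the difference between the Hoxa and Hoxb clusters itself was not tested. No Hoxc or Hoxd gene had enough reads to be tested.

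Markers of the most primitive cells of the LK fraction moved in the same direction as Hoxa5 and Hoxa10 in the comparisons of Asxl1Y588XTg with WT and with the double mutant. The summed normalized counts of 15 stem and early progenitor markers were 5635 to 6704 in WT, 5298 to 5715 in Kdm6bΔ/+, 10139 to 14800 in Asxl1Y588XTg and 5869 to 7654 in double-mutant libraries, and no marker was at 0 in all libraries. Of these 15, which include Meis1 and Hoxb5, 10 were called as higher in Asxl1Y588XTg than WT, and 7 as lower in the double mutant than Asxl1Y588XTg. In the double mutant against WT, 14 of the 15 markers were higher (median log2 difference 0.43) while all 6 Hoxa estimates were lower (median -0.21). No Hoxa difference was resolved there, since all 6 intervals included 0. The Hoxa median was 0.12 with the Y-linked term and -0.0065 without WT replicate 1, so its sign was not stable. In Kdm6bΔ/+ against WT, 12 of the 15 markers (median -0.14) and all 6 Hoxa genes (median -0.53) were lower. The marker sums overlapped there. Gene by gene, the groups did not overlap for 2 of the 15 markers that were lower and 1 that was higher. They did not overlap for 3 of the 6 Hoxa genes, all lower, beside 4.8% of all genes lower and 4.13% higher. In the double mutant against Kdm6bΔ/+, 13 of the 15 markers (median 0.58) and 4 of the 6 Hoxa genes (median 0.16) were higher. The summed counts of 6 megakaryocyte markers were 1379 to 2643 in WT, 1478 to 1807 in Kdm6bΔ/+, 4372 to 11827 in Asxl1Y588XTg and 2832 to 4338 in double-mutant libraries. Granulocyte and macrophage progenitor markers overlapped between genotypes, with sums from 270815 to 382653. The sums of 8 endothelial and stromal markers were 2222 to 2575 in Asxl1Y588XTg against 1811 to 2087 in WT libraries, without overlap, with 1716 to 3046 in Kdm6bΔ/+ and 2308 to 3871 in double-mutant libraries. In bulk RNA a change in the number of cells of a type and a change in RNA per cell cannot be told apart, and the part of these cell types in the Hoxa5 and Hoxa10 differences was not tested.

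By a search over the 9892 genes outside the cluster with a mean of at least 100 normalized counts, the profiles most like that of Hoxa9 over the 12 libraries were those of Zfp386 (Pearson r 0.89), Sergef (0.89), Gpr171 (0.88), Dusp5 (0.88) and Stk3 (0.87). For the sum of the 9 Hoxa genes they were Pde4b (0.92), Simc1 (0.92), Osm (0.91), Pomk (0.89) and Rgs1 (0.89). Meis1 ranked 484 of 9892 for Hoxa9, with r 0.54, and 245 for the sum, with r 0.73. These are the highest of many correlations over libraries that share genotypes and are given as a description.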

How the data were processed

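RNA from LK cells of 12 mice, 3 per genotype, was sequenced as 50 bp reads. The labels name the NEB Ultra RNA kit and a NextSeq instrument, whereas the methods of the study name a stranded ribosomal RNA depletion kit and another sequencer. The authors trimmed reads with Trimmomatic, aligned them to mm10 with STAR and counted them per gene with HTSeq. The gene annotation and the strand setting are not given in the sources used here. The deposited values are raw counts for 55291 genes, of which 22587 had no count in any library and 53292 had a symbol in GENCODE vM21.

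Genes were filtered with filterByExpr over the 4 genotypes (15825 kept) and scaled with TMM. To give normalized counts, each count was brought to the average library size after TMM. Each pair of genotypes was fitted on its 6 libraries with edgeR 4.0.16 (R 4.3.3), by robust quasi-likelihood tests adjusted after Benjamini and Hochberg over every gene in the fit, and the interaction on all 12. The SE was taken from the log2 fold change and the F statistic, and 95% intervals from the t distribution of the fit. Scripts were tested on simulated data. DESeq2 1.42.0, RLE scaling, 1 fit of 4 genotypes, other filters, a replicate block, a term for Y-linked transcripts and leaving out each library were tried. The replicate numbers did not pair the libraries. Depth was 14451522 to 23482563 counts per library, and counts of 0 and intervals on counts cover counting error only. Libraries were from single mice, so p-values measure the spread between mice. The genes described and the gene lists were chosen with earlier results of these data known. The named genes were the 9 members, plus called genes of the other lists and the 5 most correlated profiles.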

Additional observations from a re-analysis of the deposited data

How the results depend on the processing

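Called Hoxa genes were counted as higher and as lower in each of the 6 tests under each alternative. Of these 166 counts 165 were 0, as in the report, and the exception was 2 called as lower in the double mutant against Asxl1Y588XTg with no expression filter. The log2 differences of single genes kept their sign in 436 of 474 alternatives, and none of the 38 that turned had passed the test. With the Y-linked term the log2 difference turned to 0.34 for Hoxa4 in Kdm6bΔ/+ against WT, to 0.27 for Hoxa10, 0.78 for Hoxa4 and 0.30 for Hoxa5 in the double mutant against WT, and to 0.14 for Hoxa3 and 0.44 for Hoxa4 in the double mutant against Kdm6bΔ/+. With no expression filter Hoxa7 was at 0.00062 in the double mutant against WT. With a mean of at least 50 counts, which leaves Hoxa7 and Hoxa9, the median of the double mutant against Asxl1Y588XTg was -0.27. The cause of the other changes was not tested.

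When each library was left out in turn, the median in Asxl1Y588XTg against WT ranged from 0.22 to 0.89, Hoxa3 from -0.12 to 0.95 and Hoxa9 from -0.038 to 0.16. In Kdm6bΔ/+ against WT, Hoxa4 ranged from -0.85 to 0.39, Hoxa3 from -1.09 to -0.027, Hoxa10 from -0.93 to -0.10 and the median from -0.89 to -0.31. In the double mutant against WT, Hoxa4 ranged from -0.46 to 0.37, Hoxa5 from -0.43 to 0.021 and Hoxa7 from -0.16 to 0.21. In the double mutant against Kdm6bΔ/+, Hoxa3 ranged from -0.37 to 0.23, Hoxa4 from -0.27 to 0.64, Hoxa9 from -0.029 to 0.23 and Hoxa10 from -0.20 to 0.64. In the interaction, Hoxa3 ranged from -0.98 to 0.094, Hoxa4 from -1.21 to 0.039, Hoxa5 from -0.051 to 0.64 and Hoxa9 from -0.13 to 0.15. Leaving out a library turned no sign of Hoxa5 or Hoxa10 in the comparisons of Asxl1Y588XTg with WT or with the double mutant.

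Libraries with the same replicate number did not deviate together, with a median correlation of -0.04 over 18 pairs and 0 pairs above 0.1. With the replicate block the log2 differences of Hoxa5 and Hoxa10 in the double mutant against Asxl1Y588XTg were -1.12 and -1.19 (edgeR adjusted p = 0.161 and 0.142), and the signs of Hoxa7 in the double mutant against WT (0.0060) and Hoxa4 in the double mutant against Kdm6bΔ/+ (0.032) turned. Over all genes the block gave 13 higher and 58 lower calls in the double mutant against Asxl1Y588XTg, in place of 23 and 252.

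Depth limits Hoxa2, Hoxa6 and Hoxa11, which had at most 10 reads in any library and Hoxa3 and Hoxa4, with at most 23.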
